A study of Mus musculus with 8 samples.

Results

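The genes described here are 10 that mark resident Kupffer cells, the macrophages that live in the sinusoids of the liver: Clec4f, Vsig4, Timd4, Cd5l, Marco, Csf1r, Cd163, Folr2, Clec1b and Fcna. They were followed through every probe that carries one of these symbols in the authors' table, which gave 10 of its 21180 named genes and 12 of its 40554 probes that are not controls. Csf1r had 3 probes and each of the other genes had 1. The samples were whole liver RNA of 4 miR-223KO and 4 wild-type (WT) samples, all male, on a C57BL/6J background and fed a high-fat diet for 3 months. The knockout lacks the microRNA miR-223, with no cell type given for the deletion. Whether each sample came from its own mouse is not stated, and the tests then cover only the spread among the samples, which may be technical. Each liver RNA was labelled with Cy5 and hybridised with an assorted mouse RNA in Cy3 to an Agilent 2-colour array, so each value is a log2 ratio of liver over that reference.

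Kupffer cells seed the liver before birth and renew themselves there. They clear bacteria, dying cells and old red cells from portal blood, and their survival depends on signalling through the receptor encoded by Csf1r. When resident cells are lost in fatty liver disease, monocytes from the blood can take their place and acquire only part of this gene set, with Timd4 acquired late. miR-223 is a myeloid microRNA, best known from neutrophils and also made in macrophages. The study's title places it in steatohepatitis and liver cancer, and the comparison of miR-223KO with WT asks here whether the Kupffer gene set differs when it is missing. A difference in whole liver can come from the number of Kupffer cells, from RNA per cell or from other cells that carry the gene. These sources cannot be told apart here.

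The mature strand of the deleted microRNA lies at chrX:96242884-96242905 on the plus strand of GRCm38.p6 in RefSeq, and it is shown because its seed, bases 2 to 8 in capitals, is what pairs with target transcripts.
mmu-miR-223-3p: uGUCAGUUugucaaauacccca

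What the array measured of each gene is a stretch of 60 bases. The probes of the 5 members below are shown because they carry the largest higher and lower differences among the tested genes outside Csf1r (Clec1b, Folr2 and Fcna), the gene beside the deleted locus (Vsig4) and the lectin that defines the cell type in the mouse (Clec4f). All are written 5′ to 3′ as the authors' table gives them, and the capitals in Clec1b mark a TAA triplet that ends an otherwise open reading frame after 52 bases.
Clec1b: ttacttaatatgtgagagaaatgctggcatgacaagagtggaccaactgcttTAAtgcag
Folr2: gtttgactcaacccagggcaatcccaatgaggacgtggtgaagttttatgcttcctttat
Fcna: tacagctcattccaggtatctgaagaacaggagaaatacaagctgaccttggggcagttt
Vsig4: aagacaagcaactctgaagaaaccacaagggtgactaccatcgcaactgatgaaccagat
Clec4f: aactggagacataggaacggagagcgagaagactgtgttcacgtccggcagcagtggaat
The other 4 probes have at least 1 reading frame open over all 60 bases. Their GC content was 40% in Clec1b, 45% in Folr2, Fcna and Vsig4, and 53.3% in Clec4f. The complement of the miR-223 seed, AACTGAC, searched on the given strand, was in 0 of the 12 member probes and in 0.37% of all 40554 probes. At so low a share, 0 of 12 says little. Target sites outside these stretches of 60 bases were not examined.

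The arrays could see these genes in whole liver. In Cy5, 11 of the 12 probes were well above background on all 8 arrays, while the Timd4 probe reached it on 4 of 4 miR-223KO and 2 of 4 WT arrays. Alb, the albumin gene of hepatocytes, stood between 1.39 and 3.06 on the log2 ratio scale over the 8 arrays. Other hepatocyte genes were mixed, with flagged spots kept. Ahsg, Apoa1, Apob and Fgb stayed above the reference on all 8 arrays. Ttr (-0.22 to 0.50), Hnf4a (-0.35 to 0.07), Ass1 (-0.44 to 0.47) and Cps1 (-0.41 to 1.04) reached below it. No probe carried miR-223 or its host transcript, so the deletion itself could not be checked. The arrays lay on 2 slides of 2 miR-223KO and 2 WT samples each, replicates 1 and 2 on slide 1 and replicates 3 and 4 on slide 2. Of the spots on an array, 49.5% to 69.8% were well above background in Cy5, with the lowest values on miR-223KO replicate 2, WT replicate 3 and WT replicate 4 (53.0%, 53.2% and 49.5%).

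None of the Kupffer genes passed the test. Of the 9 that could be tested, 6 had a higher mean in miR-223KO and 3 a lower one, with a median log2 difference of 0.19 against -0.01 over all 16755 genes and unnamed probes tested, of which 48.3% were higher. In limma, with Benjamini-Hochberg adjustment over all of them, 0 of the 9 had an adjusted p under 0.05 (smallest 0.98), where 0.0119% of all did. An unadjusted p under 0.05 was reached by 3 of the 9, Clec1b, Csf1r and Folr2, all higher in miR-223KO, against 4.68% of all genes in either direction and 2.31% in that one. The miR-223KO and WT values did not overlap in 2 of the 9, Clec1b and Csf1r, both higher, against 3.09% of all genes in either direction and 1.65% in that one. Fcna lay lowest, at -0.38. With 4 arrays a group, the standard error (SE) of a difference had a median of 0.21 over all genes.

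**Figure D1:**
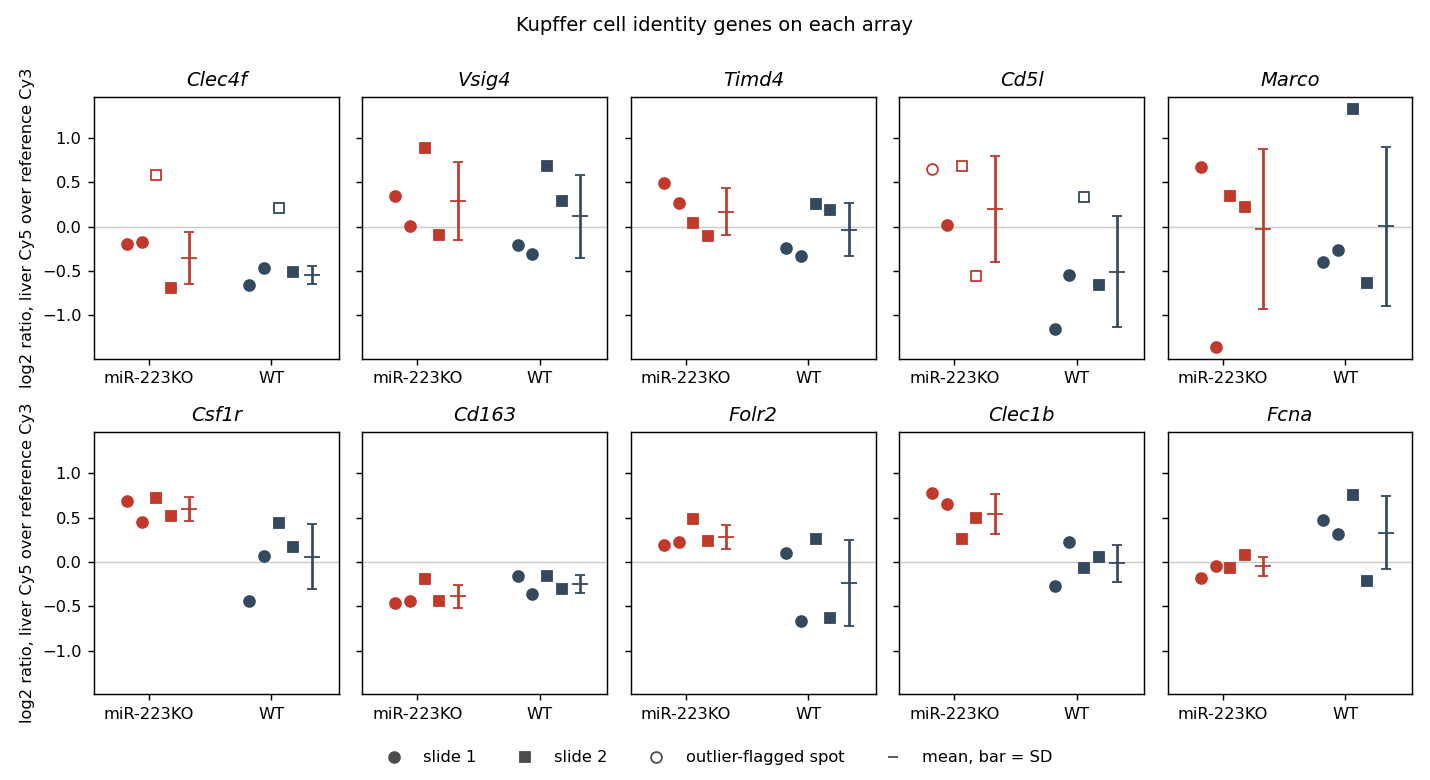
Log2 ratio of liver Cy5 over reference Cy3 (y axis) for each of the 10 genes on each array, miR-223KO left and WT right, circles for slide 1 and squares for slide 2, open symbols for outlier-flagged spots, with the mean and SD (over the unflagged spots, and over all spots for Cd5l). All 4 miR-223KO values lie above all 4 WT values for Clec1b and Csf1r, while Marco spreads from -1.35 to 0.67 in miR-223KO and from -0.64 to 1.33 in WT.

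Csf1r encodes the receptor for CSF1 and IL-34, the growth factors that keep macrophages alive. On its brightest probe (A_51_P365885) the log2 ratio was 0.69, 0.45, 0.72 and 0.52 in miR-223KO replicates 1 to 4, against -0.44, 0.06, 0.44 and 0.17 in WT replicates 1 to 4. The groups did not overlap, but the lowest miR-223KO value and the highest WT value were only about 0.01 apart, and WT replicate 1 lay well under the rest. In the authors' deposited table the groups of this probe overlapped, with miR-223KO replicate 2 at 0.24 and WT replicate 3 at 0.58. In Cy5 alone they overlapped too, with miR-223KO replicate 4 at 10.13 and WT replicate 3 at 10.16. The difference was 0.54 (SE 0.20, 95% interval 0.11 to 0.96, a 1.45-fold higher level), with an adjusted p = 0.98 in limma and an unadjusted p = 0.0173. The other 2 Csf1r probes were higher in miR-223KO by 0.31 (SE 0.21, A_52_P602091) and 0.37 (SE 0.25, A_52_P570471), and on both the groups overlapped. In the authors' table the groups of A_52_P602091 did not overlap. Without WT replicate 1 the difference of the brightest probe was 0.37. Of its ligands, Csf1 stood at 0.18 (SE 0.17), with groups that did not overlap, and Il34 at 0.06 (SE 0.19), and neither passed the test.

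Clec1b encodes CLEC-2, a C-type lectin receptor that binds podoplanin and is found on mouse Kupffer cells and on platelets. Its log2 ratio was 0.78, 0.65, 0.25 and 0.49 in miR-223KO replicates 1 to 4, against -0.27, 0.22, -0.07 and 0.06 in WT replicates 1 to 4. The groups did not overlap, with miR-223KO replicate 3 closest to WT. This was the largest difference among the 9 tested genes, 0.56 (SE 0.19, 95% interval 0.16 to 0.96), or 1.47-fold, with an adjusted p = 0.98 in limma and an unadjusted p = 0.00899. The difference lay in the liver channel, at 0.54 in Cy5 and -0.02 in Cy3. Since platelets carry this gene, the platelet and megakaryocyte list stands beside it: 6 of its 11 genes were tested, 1 was higher and 5 lower in miR-223KO, with a median of -0.13. The list mean ran from -0.09 to 0.21 on miR-223KO arrays and from 0.08 to 0.35 on WT arrays. The defining platelet genes Pf4 and Ppbp were well above background on 2 of 8 arrays each.

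Folr2 encodes folate receptor beta, a surface protein of resident macrophages. It read 0.19, 0.22, 0.48 and 0.24 in miR-223KO replicates 1 to 4, against 0.10, -0.67, 0.26 and -0.63 in WT replicates 1 to 4. The miR-223KO arrays lay close together, and the WT arrays split into a pair near the miR-223KO values (replicates 1 and 3) and a pair far lower (replicates 2 and 4), so the groups overlapped. The difference was 0.52 (SE 0.22, 95% interval 0.04 to 0.99), or 1.43-fold, with an adjusted p = 0.98 in limma and an unadjusted p = 0.0341. It was 0.53 in Cy5 and 0.01 in Cy3.

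**Figure D2:**
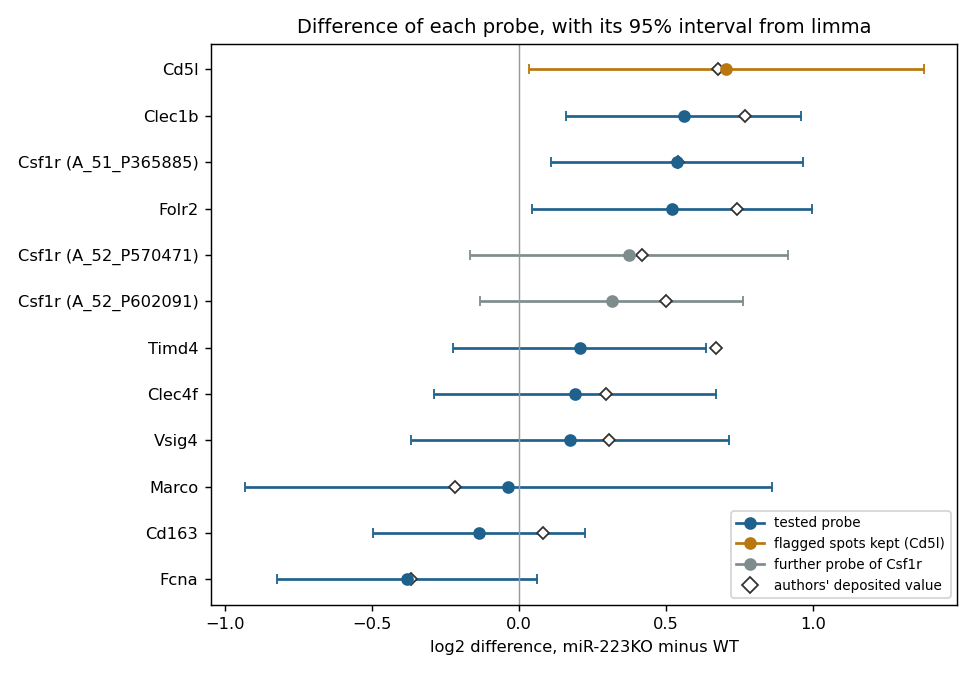
Log2 difference of each of the 12 probes, miR-223KO minus WT (x axis), with the 95% interval from limma as a bar and the value of the authors' deposited table as an open diamond. The intervals of Clec1b, Folr2, the brightest Csf1r probe and Cd5l with its flagged spots kept lie above 0 before adjustment, and the others include 0.

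Clec4f encodes a C-type lectin that in mice is restricted to Kupffer cells and is the usual marker of the lineage. It read -0.20, -0.17 and -0.70 in miR-223KO replicates 1, 2 and 4, against -0.66, -0.47 and -0.51 in WT replicates 1, 2 and 4. The spots of both replicates 3 carried an outlier flag and were left out, and they were the brightest of their groups, at 0.58 in miR-223KO and 0.21 in WT. The groups overlapped, with miR-223KO replicate 4 the lowest of all arrays. The difference was 0.19 (SE 0.22, 95% interval -0.29 to 0.67, adjusted p = 0.98 in limma), and 0.23 with the flagged spots kept.

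Timd4 encodes TIM-4, which binds phosphatidylserine on dying cells and marks Kupffer cells of embryonic origin. It read 0.49, 0.26, 0.04 and -0.11 in miR-223KO replicates 1 to 4, against -0.25, -0.34, 0.25 and 0.19 in WT replicates 1 to 4. The groups overlapped, and the order turned with the slide. On slide 1 both miR-223KO arrays lay above both WT arrays and the difference was 0.66, while on slide 2 both lay below and the difference was -0.25. Those 2 WT arrays of slide 2 are the ones on which the Timd4 spot was not well above background. The interaction of genotype with slide, chosen after these values were seen, was 0.92 (SE 0.32, adjusted p = 0.49 in limma). The difference over all arrays was 0.21 (SE 0.20, 95% interval -0.23 to 0.64, adjusted p = 0.98), and the authors' deposited table gives 0.67.

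Vsig4 encodes CRIg, the receptor with which Kupffer cells capture particles coated with complement C3 fragments. In the RefSeq annotation of GRCm38.p6 it is the neighbour of the deleted microRNA: on chromosome X it lies 4274 bases from Mir223, with 0 annotated genes lying in the gap. Its log2 ratio was 0.35, 0.01, 0.88 and -0.09 in miR-223KO replicates 1 to 4, against -0.21, -0.31, 0.69 and 0.29 in WT replicates 1 to 4. The groups overlapped widely, and replicate 3 was the highest array of both. The difference was 0.17 (SE 0.25, adjusted p = 0.99 in limma), and its 95% interval of -0.37 to 0.71 spans folds of 0.774 to 1.64. No difference of the gene beside the deletion was thus detectable at this precision. It was 0.44 on slide 1 and -0.09 on slide 2.

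Cd5l encodes a secreted scavenger receptor, also called AIM, that is made by tissue macrophages and blocks fatty acid synthase after uptake. Outlier flags left only 1 of its 4 miR-223KO spots and 3 of its 4 WT spots, so it could not be tested. With flagged spots kept, it read 0.65, 0.02, 0.69 and -0.56 in miR-223KO replicates 1 to 4, against -1.16, -0.55, 0.34 and -0.66 in WT replicates 1 to 4. The groups overlapped, since WT replicate 3 stood above 2 of the miR-223KO arrays. The difference was then 0.70 (SE 0.32, 95% interval 0.03 to 1.38, adjusted p = 0.98 in limma), and within the slides it was 1.19 and 0.22. The authors' deposited table gives 0.68 for the same spots.

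Marco and Cd163, both scavenger receptors, had the mean differences closest to 0. Marco, which binds bacteria and particles, read 0.67, -1.35, 0.34 and 0.22 in miR-223KO replicates 1 to 4, against -0.40, -0.27, 1.33 and -0.64 in WT replicates 1 to 4. The spread within each group was the widest of the 9 tested genes, with an SD of 0.90 in miR-223KO and 0.90 in WT, and the difference was -0.04 (SE 0.42, 95% interval -0.93 to 0.86, adjusted p = 1.00 in limma). Its sign rested on single arrays, at 0.40 when miR-223KO replicate 2 was left out and again 0.40 when WT replicate 3 was. Cd163, which takes up haemoglobin bound to haptoglobin, read -0.47, -0.44, -0.19 and -0.44 in miR-223KO replicates 1 to 4, against -0.16, -0.36, -0.16 and -0.31 in WT replicates 1 to 4. The 8 arrays spanned a narrower range than for any other tested gene, and the difference was -0.14 (SE 0.17, 95% interval -0.50 to 0.23, adjusted p = 0.98). It was 0.01 in Cy5 alone and 0.15 in the Cy3 reference, and the authors' deposited table has it at 0.08.

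Fcna, which encodes ficolin A, a secreted lectin that starts the lectin pathway of complement, stood on the other side of the set. It read -0.18, -0.04, -0.06 and 0.08 in miR-223KO replicates 1 to 4, against 0.48, 0.31, 0.75 and -0.22 in WT replicates 1 to 4. The miR-223KO arrays lay close to 0, 3 WT arrays lay above all of them, and WT replicate 4 lay below all of them. The difference was -0.38 (SE 0.21, 95% interval -0.82 to 0.06, adjusted p = 0.98 in limma, unadjusted p = 0.0858). Without WT replicate 4 it was -0.56, and without WT replicate 3 it was -0.24. Within the slides it was -0.50 and -0.26, and it was -0.33 in Cy5 and 0.06 in Cy3.

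Single arrays stood high for many of the genes at once, in both groups. With 1 probe a gene and flagged spots kept, WT replicate 3 was the highest WT array for 9 of the 10 genes, all but Clec1b, though for Cd163 it led WT replicate 1 by less than 0.01. Among the miR-223KO arrays replicate 3 was the highest for 6 of the 10, while replicate 4 was the lowest for 4 of them. The mean log2 ratio of the 10 genes was 0.30, -0.04, 0.37 and -0.03 on miR-223KO arrays 1 to 4, against -0.30, -0.24, 0.40 and -0.23 on WT arrays 1 to 4. The array with the highest mean was thus a WT array, and the other 3 WT arrays were the lowest.

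**Figure D3:**
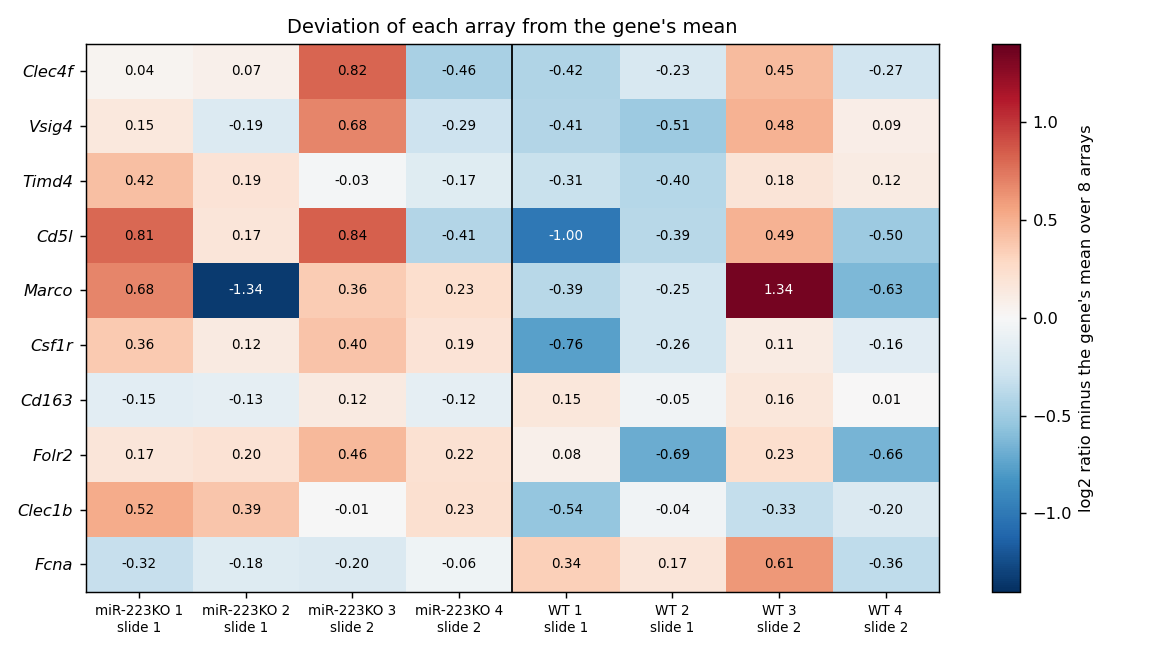
Log2 ratio of each gene minus its mean over the 8 arrays (colour and number), genes down the page, with the 4 miR-223KO arrays left of the line and the 4 WT arrays right of it. miR-223KO replicate 3 is above the gene's mean for 7 genes and WT replicate 3 for 9, and Fcna is below its mean on all 4 miR-223KO arrays.

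The median difference was not the same on the 2 slides, each with 2 arrays a group. The median difference of the tested members was 0.44 within slide 1 (9 genes) and -0.07 within slide 2 (8 genes), against 0.00 and -0.02 over all genes tested there. Csf1r was higher in miR-223KO by 0.75 and 0.32 on slides 1 and 2, Clec1b by 0.74 and 0.38, and Folr2 by 0.49 and 0.55. These 3 thus had the same direction on both slides, as had Cd5l and Clec4f with flagged spots kept, while Fcna, Cd163 and Marco were lower on both. Vsig4 and Timd4 changed direction. Blocking on slide in limma gave an adjusted p = 0.93 for Clec1b, Csf1r, Folr2 and Fcna, and 0 members passed. In limma 0 of 14702 genes passed for the interaction of genotype with slide, and 1385 had an unadjusted p under 0.05. That is a larger share than the 4.68% of genes with such a p for genotype over all arrays. Among the members tested for the interaction, all but Clec4f and Cd5l, Timd4 alone had a p under 0.05 (0.0137). The others ran from 0.245 (Vsig4) to 0.950 (Marco). A slide effect on the members was thus not shown. Clec4f had too few unflagged spots to be tested within slide 2 or once replicate 1, 2 or 4 of either group was left out. Over the other 8 tested genes, the same in every case, the median was 0.19 over all arrays and 0.46 within slide 1. Leaving out 1 miR-223KO array gave 0.13, 0.33, 0.11 and 0.30 (replicates 1 to 4), and leaving out 1 WT array gave 0.10, 0.07, 0.38 and 0.26 (replicates 1 to 4).

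**Figure D4:**
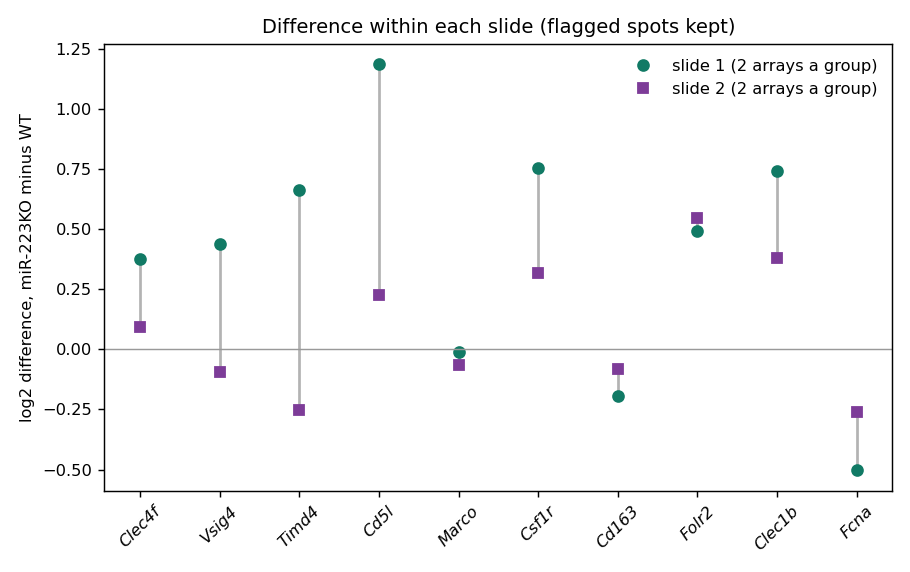
Log2 difference of each gene, miR-223KO minus WT (y axis), computed within slide 1 (circles) and within slide 2 (squares) from 2 arrays a group on each, with flagged spots kept. Csf1r, Folr2, Clec1b, Cd5l and Clec4f lie above 0 on both slides, Fcna and Cd163 below, Marco close to 0, and Timd4 and Vsig4 on opposite sides.

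Further genes of the Kupffer programme gave no call. Of 21 other genes enriched in Kupffer cells, such as the iron exporter Slc40a1 (-0.21, SE 0.23) and the haem oxygenase Hmox1 (0.04, SE 0.22), 19 were tested, 12 were higher and 7 lower in miR-223KO, with a median of 0.06. The smallest p-values belonged to Axl, a receptor for dying cells (0.38, SE 0.22), and Dmpk (0.40, SE 0.23), both with an adjusted p = 0.98 in limma. Of 19 transcription factors that build the Kupffer or macrophage programme, 17 were tested, 12 higher and 5 lower, with a median of 0.03. Runx1, a factor of blood cell development, stood at -0.36 (SE 0.27). Of 14 genes for niche and inflammatory signals, 13 were tested, 9 higher and 4 lower, with a median of 0.08. Those with the smallest p were Il1b, an inflammatory cytokine (0.22, SE 0.17), and Csf1. In these 3 lists 0 genes passed the test, and 0 had an unadjusted p under 0.05.

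Markers of macrophages in general had mostly higher means in miR-223KO. Of 23 genes found in most macrophages, all tested, 19 were higher and 4 lower in miR-223KO, with a median of 0.28. Ctss, the protease cathepsin S, stood at 0.64 (SE 0.21) and Cd74, the invariant chain of MHC class II, at 0.59 (SE 0.28), both with an adjusted p = 0.98 in limma. An unadjusted p under 0.05 was reached by 2 of the 23, both higher, against 2.31% of all genes in that direction. The mean of this list was 0.46, -0.01, 0.08 and 0.10 on miR-223KO arrays 1 to 4, against -0.29, -0.18, 0.29 and -0.24 on WT arrays 1 to 4. WT replicate 3 was the highest WT array here too. The median was 0.45 within slide 1 and 0.02 within slide 2. Of 18 monocyte and recruited macrophage genes, 12 were tested, 7 higher and 5 lower, with a median of 0.14, Trem2 at 0.57 (SE 0.21) and Cd9 at 0.42 (SE 0.26). Trem2 alone of the 12 had an unadjusted p under 0.05 in limma. Ccr2, the defining receptor of recruited monocytes, reached a level well above background on 2 of 8 arrays, and Gpnmb and Mmp12 on 0 of 8.

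**Figure D5:**
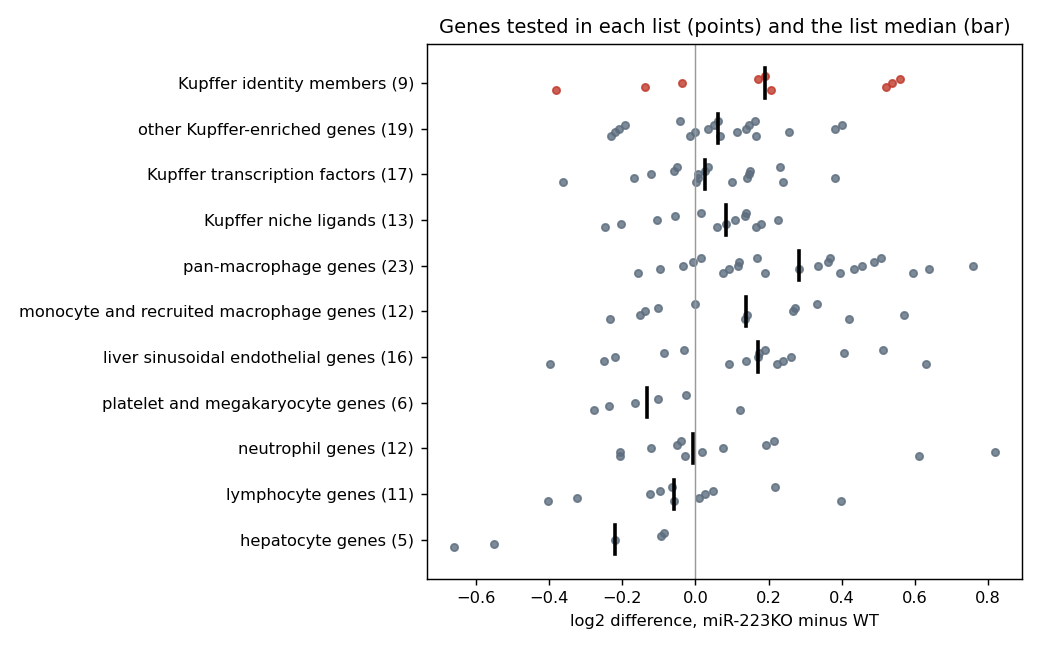
Log2 difference, miR-223KO minus WT (x axis), of each gene tested in each list (points, with the number tested in brackets) and the list median (bar). The Kupffer set runs from -0.38 to 0.56 around a median of 0.19, the macrophage list has its median at 0.28, and the hepatocyte list lies below 0.

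The lists for other cell types of the liver stood on both sides of 0, and their part in the Kupffer values was not tested. Sinusoidal endothelial genes had 11 of 16 higher and 5 lower, with a median of 0.17, and their list mean ran from -0.14 to 0.11 on miR-223KO arrays and from -0.29 to 0.01 on WT arrays. Flt4 stood at 0.51 (SE 0.19) and Ptprb at 0.63 (SE 0.26). Of 15 neutrophil genes 12 were tested, 6 higher and 6 lower, with a median of -0.01, S100a9 at 0.61 (SE 0.21) and Lcn2 at 0.82 (SE 0.40). Their list mean ran from -0.11 to 0.14 on miR-223KO arrays and from -0.29 to 0.12 on WT arrays. Of 15 lymphocyte genes 11 were tested, 5 higher and 6 lower, with a median of -0.06, Ncr1 at -0.40 (SE 0.18) and Ms4a1 at 0.40 (SE 0.19). Hepatocyte genes had 0 higher and 5 lower among the 5 of 12 tested, with a median of -0.22, Alb at -0.66 (SE 0.25) and Apoa1 at -0.55 (SE 0.28). Their list mean ran from 0.33 to 0.82 on miR-223KO arrays and from 0.74 to 1.04 on WT arrays. Ahsg, Fgb, Cps1 and Ass1 were well above background on 8 of 8 arrays but had too few unflagged values to be tested. None of the genes in these lists passed the test in limma over all genes. An unadjusted p under 0.05 was reached by 2 of 16 endothelial genes and 1 of 12 neutrophil genes, all higher. It was also reached by 1 higher and 1 lower of 11 lymphocyte genes and by 1 lower of 5 hepatocyte genes, against 4.68% of all genes in either direction.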

How the data were processed

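Gene expression was measured in 8 liver samples on 8 arrays. Per the file headers, the deposited intensity values came from Agilent Feature Extraction 12.0.3.1 (protocol GE2_1200_Jun14), read for spot and local background (design 014868, grid named for mm9). Their LogRatio column is deposited as log10 values, red (Cy5) over green (Cy3) after processing. In the authors' table the values are log2 ratios that match the processed signals, and its fold change is the difference of the means, miR-223KO minus WT (within 5.2e-07). From the scanner files, median signals were background-corrected by normexp (offset 50) and normalised within arrays by loess in limma 3.58.1 (R 4.3.3), giving control spots and spots with an outlier flag weight 0, and flagged local backgrounds replaced by the array's median. Spots with the flag did not enter the test. Tested probes had Cy5 signal well above background on 4 or more arrays and 3 or more values in each group, and the brightest probe stood for a gene. Values for Cy5 or Cy3 alone follow loess and Aquantile normalisation. miR-223KO and WT were compared by limma (lmFit, eBayes, two-sided), adjusted over 16755 genes and unnamed probes at 0.05. On simulated ratios of 16755 genes with the real spread, this test called 97% of changes of 2 and 56% of changes of 1 on the log2 scale. The simulation held 100 changed genes of each size, where 2 genes passed in the data, and more true changes ease the adjusted threshold. Changes under 1, the size of the member differences, were not simulated, so these shares do not apply to them. The members and gene lists were chosen with earlier results of these data known. All members are given with every probe, and of each other list at most the 2 genes with the smallest p, apart from markers named for their detection, and Slc40a1, Hmox1 and Il34, chosen as examples after their values were seen. Alternatives changed the background, normalisation, filter, flagged spots, probe choice, slide and replicates.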

Additional observations from a re-analysis of the deposited data

Results flagged for a closer look

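On miR-223KO replicate 3, Cd163 read -0.1939, with the nearest other miR-223KO array at -0.44, a gap of 0.895 of the group's range. On the same array Folr2 read 0.4818, with the nearest other at 0.24. Both lie past Dixon's 95% critical value for 4 samples, the Folr2 value only just. In all, 22 groups of 4 arrays were examined and 2 stood out, where chance gives about 1 in 20. Without this array the difference of Cd163 was -0.20 and that of Folr2 was 0.45.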

How the results depend on the processing

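No member passed the test under any of the 21 alternatives that gave a test, and Csf1r, Folr2, Clec1b, Fcna and Clec4f kept their direction under all of theirs, as did Cd5l with its flagged spots kept. The adjusted p of Clec1b ran from 0.82 to 1.00. Over all genes, 2 passed. That count was 4 with a normexp offset of 16, and 1 with Agilent's processed signals, the authors' table, median centring, Cy5 alone, flagged spots kept or probes averaged per gene, and 1 to 3 without single replicates. Cd163 turned to 0.0811 with the processed signals and in the authors' table, and to 0.0146 in Cy5 alone. Marco turned to 0.14 with median centring and ran from -0.27 to 0.40 without single replicates, and Vsig4 from -0.0267 to 0.36. Within slide 2 the median of the members was -0.0723, Vsig4 -0.0941 and Timd4 -0.25. The cause of these turns was not tested. The median was 0.42 in the authors' table, where all 10 members were tested, and 0.07 to 0.36 without single replicates, or 0.07 to 0.38 over the 8 members tested each time, a comparison chosen after seeing the data. Same-numbered samples did not deviate together (correlations of -0.03 to 0.06). Whether the numbers pair samples by design is not stated, and these correlations cannot show it. With a replicate block 2 genes passed over all genes and 0 members, with Clec1b at 0.56 (adjusted p = 0.99). Dim spots limit Timd4, and flagged spots limit Cd5l and Clec4f.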

Other observations

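Beside Vsig4, the other protein-coding genes closest to Mir223 in the RefSeq annotation of GRCm38.p6 are Msn, Hsf3 and Heph, looked at after their values were seen. The 3 probes of Msn, which encodes the cytoskeletal linker moesin, were higher in miR-223KO by 0.37 (SE 0.19), 0.37 (SE 0.22) and 0.43 (SE 0.20), with overlapping groups and an adjusted p = 0.99 in limma with every probe on its own. Hsf3 differed by -0.04 (SE 0.22) and Heph by 0.07 (SE 0.17).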
